A study of Mus musculus with 6 samples.

Results

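The genes described here encode the heat shock proteins and the DnaJ (J-domain) cochaperones of the mouse. They were taken by symbol from the protein-coding genes of GENCODE vM21: all symbols starting with Hspa, Hspb, Hsp90, Hspd, Hspe, Hsph, Dnaja, Dnajb or Dnajc, plus Cryab, without Dnajb13, Hspbap1 and Hspbp1. This gave 72 of 22028 protein-coding genes: 13 Hspa, 3 Hsp90, 9 Hspb with Cryab, Hspd1, Hspe1 and Hsph1, 4 Dnaja, 12 Dnajb and 28 Dnajc genes. The samples were poly-adenylated RNA sequencing libraries of the ventral lumbar spinal cord of C57BL/6 mice aged 5 weeks, 3 wild type (WT) and 3 labelled Gde2KO, which lack GDE2, a membrane enzyme encoded by Gdpd5 that releases proteins from their glycosylphosphatidylinositol anchors. The labels describe no treatment, do not say how the allele was made, and do not give the sex of the mice or whether a library came from 1 animal or from a pool. They do not state that the 3 libraries of a genotype are separate animals, so every p-value measures the spread between these libraries, which may be technical.

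HSP70 proteins (Hspa genes) bind exposed hydrophobic stretches of unfolded proteins and release them in cycles of ATP hydrolysis. J-domain proteins (Dnaj genes) bring them substrates and trigger hydrolysis, HSP110 proteins such as Hsph1 exchange the nucleotide, and HSP90 dimers take over partly folded clients such as kinases and steroid receptors. Small heat shock proteins (Hspb genes and Cryab) hold aggregating proteins without ATP, and the chaperonin of Hspd1 and Hspe1 folds proteins inside mitochondria. In the nervous system these proteins are known for uncoating clathrin vesicles, guarding synaptic vesicle proteins and limiting aggregation in long-lived neurons and glia.

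Many of these genes are known targets of heat shock factor 1 or of the transcription factors of the endoplasmic reticulum (ER) stress response, so the promoter stretches holding the matching letters are shown first. RefSeq start sites on GRCm38.p6 were found for 57 of the 72 genes, in 74 windows from 250 bases before to 50 bases after a start. The heat shock element was searched on both strands as GAA, any 2 bases, TTC, any 2 bases, GAA, or the same with TTC, GAA and TTC in that order. It occurred in windows of 4 of the 57 genes (7.02%) and of 0.662% of all 27025 genes in the table. The ER stress element was searched as CCAAT, any 9 bases, CCACG, and occurred in 3 of the 57 (5.26%) and in 0.137% of all genes. Capitals mark the matched letters, with overlapping matches joined, and each sequence is written 5′ to 3′ on the strand of its gene.
Hspd1, heat shock element: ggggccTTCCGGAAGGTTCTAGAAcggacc
Hspe1, heat shock element: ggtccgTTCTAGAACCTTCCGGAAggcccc
Dnajb6, heat shock element: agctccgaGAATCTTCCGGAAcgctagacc
Hsph1, heat shock element: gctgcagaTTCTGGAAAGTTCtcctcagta
Hspa5, ER stress element: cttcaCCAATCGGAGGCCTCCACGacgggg
Hsp90b1, ER stress element, far: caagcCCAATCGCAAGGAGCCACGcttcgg
Hsp90b1, ER stress element, near: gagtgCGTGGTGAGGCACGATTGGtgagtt
Dnajc3, ER stress element: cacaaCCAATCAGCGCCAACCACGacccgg

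The Hspd1 and Hspe1 sequences are the 2 strands of 1 stretch, chr1:55088053-55088082. It lies between the RefSeq starts of these divergent genes, which are 216 bases apart. The match is 144 bases before the Hspd1 start and 89 bases before the Hspe1 start. In GENCODE vM21, used for the levels, Hspd1 reaches chr1:55088243 and Hspe1 begins at chr1:55088132. By those extents the 2 genes overlap and the match lies within Hspd1. The Dnajb6 stretch is chr5:29735844-29735873 on the plus strand, 46 bases before 1 annotated start and 127 before another. The Hsph1 stretch is chr5:149636279-149636308 on the minus strand, where the match begins 16 bases after 1 start and 37 after another. For the ER stress element, Hspa5 has it at chr2:34772020-34772049 (plus strand), 65 bases before its start, and Dnajc3 at chr14:118937822-118937851 (plus strand), 105 bases before. Hsp90b1 holds it on both strands, at chr10:86705632-86705661, 212 bases before the start, and at chr10:86705527-86705556, 107 bases before. All these distances are from RefSeq starts, and the Dnajb6, Hsph1 and Hspa5 matches also lie inside the GENCODE extents of their genes. A match is a description of letters, and binding was not measured.

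Levels are FPKM (fragments normalised to transcript length and library size) read from each library's own transcript assembly, averaged over the exonic bases of a gene that were assembled in at least 3 of the 6 libraries (its counted bases), and divided by a scale factor per library. The assemblies held 31899 to 33791 transcripts and the relative depth of the libraries, from coverage per FPKM, was 0.910 to 1.14. The files hold no read counts, so the absolute depth behind a value is unknown. Gde2KO replicate 3 stood apart: log2 differences over all genes had a robust SD of 0.253 to 0.289 in pairs of libraries with it and of 0.145 to 0.191 in the other pairs, and 0.161 to 0.235 against 0.0631 to 0.147 over the genes described here. Gdpd5, the targeted gene, was 5.38, 6.54 and 5.95 FPKM in WT and 1.24, 1.20 and 0.946 in Gde2KO (limma adjusted p = 0.00526), so the genotype labels match it. Oligodendrocyte markers (10 genes) summed to 6661 to 9714 FPKM, neuronal markers (7 genes) to 1887 to 2441 and motor neuron markers (6 genes) to 160 to 216, and 1 of 7 skeletal muscle markers reached the level filter. Of the oligodendrocyte markers 6 were higher and 4 lower in Gde2KO, and of the motor neuron markers 5 were higher and 1 lower. Of the neuronal markers 2 were higher and 5 lower (median log2 difference -0.12), and none of these markers passed. Tubb3, a neuronal marker, was 165 FPKM in WT replicate 1, where the neuronal sum was lowest, and 555 to 698 elsewhere. No marker gene of any other cell type passed the test. Markers of oligodendrocyte precursors (4 higher, 1 lower in Gde2KO), microglia (4 and 3), mural cells (2 and 4), dorsal horn neurons (2 and 2), Schwann cells (1 and 3), ependymal cells (1 and 4) and red blood cells (0 and 2) were mixed or few. All 6 immediate early genes and all 5 meningeal markers tested had a lower mean log2 level in Gde2KO, and the meningeal sum was 30.7 FPKM in Gde2KO replicate 1 and 63.1 to 82.7 elsewhere. In whole tissue, fewer cells of a type and less RNA per cell cannot be told apart.

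Of the 72 genes, 60 had at least 200 counted bases and a mean of at least 1 FPKM and entered the test across 12894 genes (limma on log2(FPKM + 0.1), with Benjamini-Hochberg adjustment). No chaperone gene passed an adjusted p of 0.05, where 0.116% of all genes tested did (15 genes), and none had an unadjusted p under 0.05, where 3.91% of all genes did. The lowest adjusted p among the 60 was 0.882. The median log2 difference, Gde2KO minus WT, was 0.04 over the 60 genes and 0.00 over all genes tested, and the median distance from a difference to the end of its 95% interval was 0.23 and 0.28. Gde2KO was above WT for 38 genes and below for 22, where 50.1% of all genes were above. Without scale factors the split was 30 and 30, with the median of all genes also lower, at -0.03, and with quantile normalization it was 39 and 21. With values of 0 treated as missing it was 37 and 23.

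**Figure D1:**
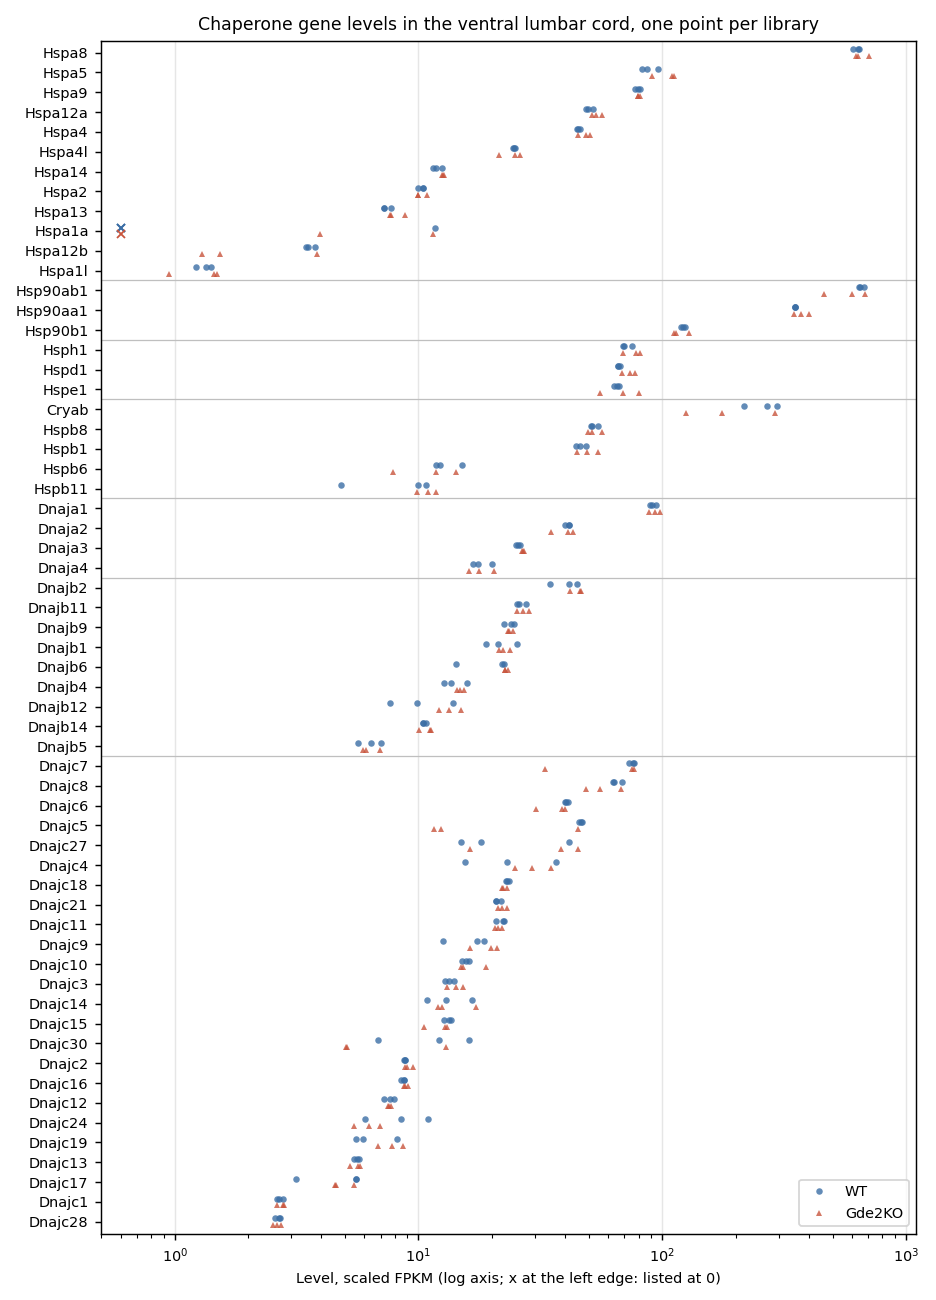
Level of each of the 60 tested genes in each library, in scaled FPKM on a log axis, ordered by family and level (blue circles WT, red triangles Gde2KO, crosses at the left edge values listed at 0). Hspa8 and Hsp90ab1 stand at the right end, and most genes show 6 points close together, while Dnajc5, Hspa12b, Dnajc27, Dnajc30 and Hspa1a are spread out.

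The constitutive cytosolic chaperones held the highest levels. Hspa8 encodes HSC70, the standing HSP70 of the cytosol and the motor of clathrin uncoating. Its level was 640, 606 and 635 FPKM in WT and 635, 703 and 625 in Gde2KO, rank 32 of 12894 genes. Hsp90ab1, the constitutive HSP90, followed at rank 37 with 641, 675 and 646 in WT and 681, 460 and 603 in Gde2KO. Hsp90aa1, the inducible HSP90, was 351, 351 and 350 in WT and 373, 347 and 399 in Gde2KO (rank 97). The WT libraries of Hsp90aa1 had a mean of 351 and an SD of 0.701 (n = 3), and the Gde2KO values lay on both sides of them. In WT the means of Hspa8 and Hsp90ab1 were 627 ± 18.1 and 654 ± 18.2, and in Gde2KO 655 ± 42.7 and 581 ± 112 (SD, n = 3). Every WT value of Hsp90ab1 lay above every WT value of Hspa8, if narrowly (lowest 641, highest 640). In Gde2KO the 2 genes overlapped, so their order over all 6 libraries was not that of WT.

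The low Hsp90ab1 value of Gde2KO replicate 2 went with a longer assembled transcript. In that library the longest model was 3355 bases, against 2371 to 2493 in the other 5. The product of FPKM and transcript length summed over the models, which follows the fragments assigned to the gene, was 1626 in this library and 1613 to 1826 in the others.

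Among the other Hspa genes, Hspa9, the HSP70 of the mitochondrial matrix, was among the steadiest, with 80.9, 77.0 and 79.6 FPKM in WT and 79.3, 80.9 and 79.2 in Gde2KO. Hspa4, an HSP110-type exchange factor, was 44.9, 46.1 and 45.2 in WT and 48.7, 45.3 and 50.5 in Gde2KO, and its relative Hspa4l was 24.5, 24.5 and 25.0 against 26.0, 21.4 and 24.8. Hspa12a, a distant relative of HSP70, was 48.7, 49.5 and 52.1 against 53.6, 51.7 and 56.4. In each of these genes the genotypes overlapped. Hspa14, a ribosome-associated HSP70, did not overlap, with 11.8, 11.5 and 12.5 in WT and 12.5, 12.6 and 12.8 in Gde2KO, but the gap was smaller than the spread within WT and the log2 difference was 0.08 (SE 0.06). Hspa2 (9.99 to 10.8) and Hspa13 (7.22 to 8.84), a microsomal HSP70, were lower, and Hspa1l stood at 0.948 to 1.49.

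The stress-inducible HSP70 genes had a model in only some of the libraries. Hspa1a, a classical marker of heat shock, was listed at 0 in WT replicates 1 and 2 and in Gde2KO replicate 1, and stood at 11.7 FPKM in WT replicate 3 and at 11.4 and 3.96 in Gde2KO replicates 2 and 3. Each non-zero value came from 1 single-exon piece of 587 to 714 bases at the 3′ end of the gene, whose annotated exons hold 2967 bases. Both genotypes thus had libraries with and without a model, and no fold is given. Hspa1b, its near-identical neighbour on chromosome 17, was assembled only as pieces of 357 bases in WT replicate 2 and 428 bases in Gde2KO replicate 1, and had no counted base. Reads of the pair could be placed on either copy, so values of both are uncertain, and an exact 0 in these files can be a failed assembly.

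The genes of the ER form the next group. Hspa5 encodes BiP, the ER HSP70 that restrains the stress sensors of this organelle. Its level was 86.9, 96.2 and 82.6 FPKM in WT and 112, 90.4 and 109 in Gde2KO. Gde2KO replicates 1 and 3 lay above every WT library and replicate 2 lay between them (fold 1.17, 95% interval 0.966 to 1.42, limma adjusted p = 0.882). Hsp90b1, the ER HSP90 also called GRP94, has matches to the ER stress element on both strands. Its level was 121, 124 and 119 in WT and 129, 112 and 114 in Gde2KO, without a shared direction. Dnajc3, whose product p58IPK serves BiP and inhibits the kinase PERK, was 12.8, 14.0 and 13.3 against 15.2, 13.1 and 14.3. The 3 genes with a match to this element thus overlapped between genotypes.

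The remaining ER J proteins varied little. Dnajb9 (ERdj4), a cochaperone in ER-associated degradation, was 22.4 to 24.7 FPKM over all libraries, and Dnajb11 (ERdj3) was 25.3 to 28.3. Dnajc10 (ERdj5), a disulfide reductase, was 15.0 to 16.1 in WT and 15.0, 15.3 and 18.9 in Gde2KO. Of the 27 tested genes of a list of the ER stress response, which includes 7 of the chaperones, none passed, 22 were higher and 5 lower in Gde2KO, and the median log2 difference was 0.05. Of its 20 other genes, 16 were higher and 4 lower. The one with the smallest p was Pdia4, a disulfide isomerase, at 19.4, 19.7 and 18.9 in WT and 21.9, 22.3 and 21.3 in Gde2KO (log2 difference 0.17, SE 0.053, limma adjusted p = 0.882). The genotypes did not overlap for Pdia4. Ddit3, also higher, was 10.7, 12.1 and 9.71 in WT and 11.4, 16.1 and 16.98 in Gde2KO, with overlap. Its log2 difference was 0.43 (SE 0.17, limma adjusted p = 0.882). Pdia4 and Ddit3 were the 2 genes of the list with an unadjusted limma p under 0.05. In the other direction Xbp1, the transcription factor spliced during ER stress, was 25.4, 24.8 and 22.4 against 24.7, 4.60 and 26.5, with Gde2KO replicate 2 alone low.

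**Figure D2:**
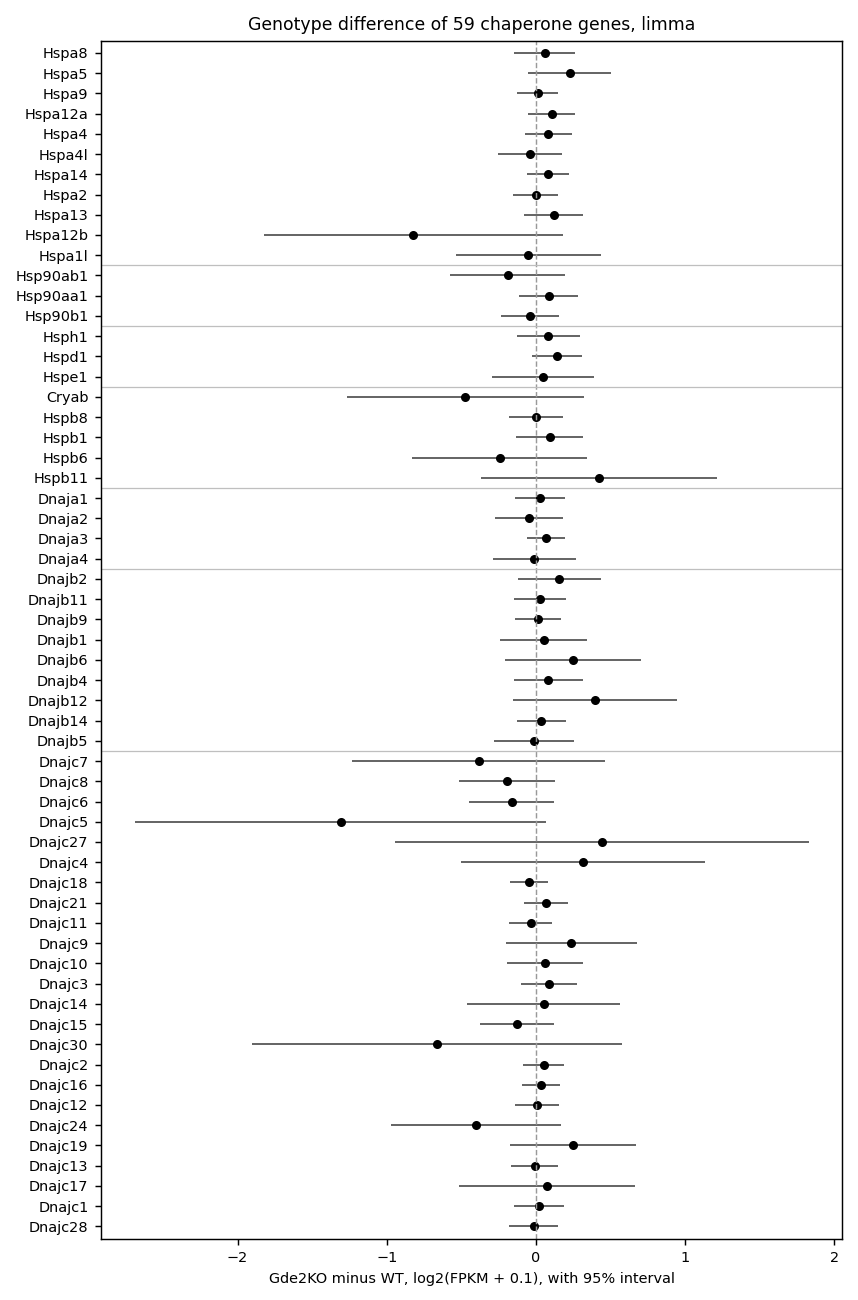
Log2 difference, Gde2KO minus WT, of 59 tested genes with its 95% interval from limma, ordered as in the plot of levels; Hspa1a, listed at 0 in 3 libraries, is left out. The interval of Dnajc5 reaches farthest to the left (0.155 to 1.05 as a fold), and every interval crosses 0.

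The mitochondrial chaperonin genes share the promoter stretch printed first. Hspd1, which encodes the HSP60 ring, was 66.8, 65.6 and 65.9 FPKM in WT and 73.9, 68.2 and 77.1 in Gde2KO. All 3 Gde2KO libraries lay above all 3 WT libraries (log2 difference 0.14, SE 0.068, limma adjusted p = 0.882). Hspe1, the HSP10 lid of that ring, was 66.7, 63.7 and 65.2 in WT, and 68.9, 55.7 and 79.9 in Gde2KO, on both sides of WT. Over the 6 libraries the 2 genes had nearly the same level in WT and parted in Gde2KO replicate 2. Hsph1, an HSP110 exchange factor and not part of that chaperonin, also has a promoter match to the heat shock element. Its level was 75.3, 70.0 and 69.1 in WT and 80.7, 68.9 and 78.0 in Gde2KO, with overlap.

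Groups that did not overlap were found for 6 of the 60 genes, where 10.9% of all genes tested had such groups. Hspd1, Hspa14, Dnaja3, Dnajb6 and Dnajc2 were higher in every Gde2KO library, where 5.06% of all genes were, and Dnajc5 was lower in each, where 5.79% were. Dnaja3 (Tid1), the J protein of the mitochondrial matrix, was 25.2, 25.5 and 26.2 FPKM in WT and 27.2, 26.7 and 26.7 in Gde2KO (log2 difference 0.07, SE 0.05). Dnajc2, a ribosome-associated J protein, was 8.74 to 8.81 in WT and 8.83 to 9.50 in Gde2KO. For both genes the gap between the genotypes was small beside the level itself.

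Further J proteins of mitochondria were Dnajc11 (20.5 to 22.4 FPKM), Dnajc15 (12.7 to 13.7 in WT and 13.1, 12.8 and 10.5 in Gde2KO), Dnajc28 (2.53 to 2.72) and Dnajc19, an import motor subunit treated below with the partly assembled genes. The low Dnajc15 library, Gde2KO replicate 3, had 65.6% of its counted bases assembled, and over the bases assembled in all 6 libraries it was the highest (13.0, 12.7 and 13.0 in WT, 14.4, 12.8 and 16.6 in Gde2KO), so the log2 difference turned from -0.13 to 0.17. In a list of 21 mitochondrial chaperone and stress genes, 13 were higher and 8 lower in Gde2KO and none passed. The median of their log2 differences was 0.02. The smallest p belonged to Clpp, the proteolytic subunit of a matrix protease, which is not a chaperone gene of the rule. Its level was 46.4, 42.0 and 45.6 in WT and 32.6, 27.9 and 30.4 in Gde2KO. All Gde2KO libraries were below all WT libraries (log2 difference -0.56, SE 0.082, limma adjusted p = 0.276). Timm44, which tethers the import motor, was 11.0, 13.0 and 10.4 against 12.4, 13.4 and 14.6.

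Cryab, which encodes alpha-B crystallin, a small heat shock protein abundant in glia, ranked 181 of 12894. Its level was 270, 294 and 217 FPKM in WT and 289, 176 and 126 in Gde2KO. Gde2KO replicates 2 and 3 lay below every WT library and replicate 1 lay within the WT range (fold 0.720, 95% interval 0.415 to 1.25, limma adjusted p = 0.882). The assemblies divided it between models of 3 and of 4 exons, and in WT replicate 3 and Gde2KO replicates 2 and 3 the model with 3 exons carried most of it. The summed product of FPKM and transcript length was 248, 260 and 276 in WT and 340, 236 and 188 in Gde2KO, so replicate 1 was above and replicates 2 and 3 below WT. Astrocyte markers (7 genes) summed to 2000, 2205 and 2217 FPKM in WT and 1958, 1981 and 1766 in Gde2KO, but 5 of the 7 were higher in Gde2KO. Without Aldoc, the most abundant of them, the sums were 1031, 1243 and 1162 in WT and 1158, 1238 and 1172 in Gde2KO, with overlap. Oligodendrocyte markers summed lowest in WT replicate 1, at 6661. The part of these cells in the Cryab values was not tested.

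The other small heat shock proteins were lower. Hspb8, a partner of the co-chaperone BAG3 in selective autophagy, was 51.0, 54.7 and 51.6 FPKM in WT and 49.7, 56.5 and 51.4 in Gde2KO. Hspb1, the mouse counterpart of HSP27, known from inherited motor neuropathies, was 46.1, 48.5 and 44.2 against 49.0, 44.9 and 54.5. Hspb6 was 11.8, 15.2 and 12.3 against 14.2, 11.8 and 7.85, with Gde2KO replicate 3 lowest. These genes overlapped between genotypes. Hspb11, an intraflagellar transport protein despite its name, was 9.98, 10.8 and 4.82 in WT and 10.9, 11.8 and 9.82 in Gde2KO, so that WT replicate 3 alone was low.

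The J proteins that work with HSP70 in the cytosol spanned a wide range. Dnaja1, a farnesylated J protein, was highest, with 88.7, 94.2 and 90.9 FPKM in WT and 97.5, 93.7 and 88.3 in Gde2KO. Dnaja2 was 41.5, 39.8 and 41.5 against 35.0, 41.2 and 43.1, and Dnaja4 was 16.1 to 20.3. Dnajb1 (HSP40), a heat-inducible J protein that binds the tail of HSP70, was 21.1, 25.3 and 18.9 against 23.6, 22.2 and 21.5, so that the Gde2KO libraries lay inside the WT range. Dnajb4, a relative of Dnajb1, was 12.8 to 15.8, Dnajb5 was 5.66 to 7.04 and Dnajb14, a J protein of the ER membrane, was 10.05 to 11.3.

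Heat-inducible genes were followed as a list of 18, of which 17 were tested and 13 of those are chaperones of the rule. None passed, 13 were higher and 4 lower in Gde2KO, and the median log2 difference was 0.05. The 13 include Hspa1a, which was listed at 0 in 3 libraries and has no reliable direction. Leaving out Hspa1a, the median log2 distance of a library from the WT mean of each gene was -0.01, 0.03 and -0.01 in WT and 0.09, 0.02 and -0.01 in Gde2KO. Gde2KO replicate 1 thus had the highest median, and the median of replicate 3 lay at the WT level. Single genes of Gde2KO replicate 3 lay on both sides of it, from -1.04 to 0.29. The same measure over the ER list was 0.00, 0.05 and -0.03 in WT and 0.09, 0.00 and 0.10 in Gde2KO. Of the 3 heat shock factors tested, Hsf1 and Hsf2 were higher and Hsf4 lower in Gde2KO, and none passed. Hsf2 was 3.49 to 4.91 in WT and 4.35 to 5.54 in Gde2KO, and Hsf4 was 9.59 to 12.5 and 8.03 to 12.4.

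**Figure D3:**
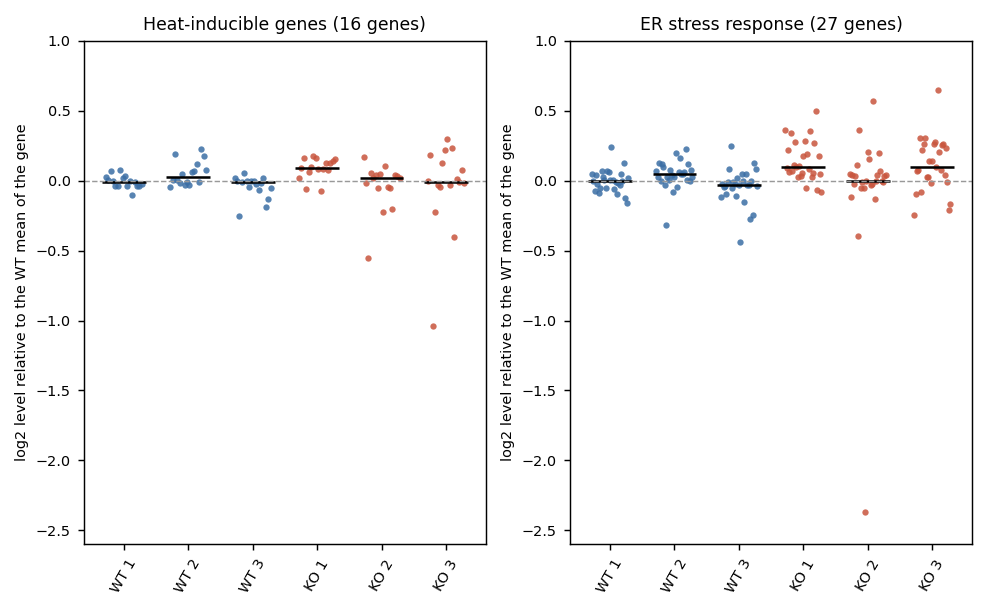
Log2 level of each gene relative to its own WT mean, per library, for 16 heat-inducible genes and 27 ER stress response genes; each point is a gene and each black bar the median of a library. The medians of Gde2KO replicate 1 are 0.09 in both panels, and the lowest point, at -2.37, is Xbp1 in Gde2KO replicate 2.

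Of the partners of HSP70 and HSP90, none passed either. Among 13 exchange factors and regulators of HSP70, 6 were higher and 7 lower in Gde2KO; the smallest p in each direction belonged to Grpel2 (2.58 to 2.60 FPKM in WT, 2.55 to 3.15 in Gde2KO) and to Bag6, which was 42.1, 42.0 and 43.2 against 40.6, 39.2 and 37.2 without overlap (log2 difference -0.12, limma adjusted p = 0.882). Among 20 HSP90 cochaperones, 15 were higher and 5 lower. Fkbp5, an immunophilin of the HSP90 and glucocorticoid receptor complex, was 6.95, 9.16 and 10.8 in WT and 13.3, 11.97 and 23.3 in Gde2KO. All Gde2KO libraries lay above all WT libraries, with replicate 3 the highest (log2 difference 0.81, SE 0.30, limma adjusted p = 0.882). Stip1 (HOP), which links HSP70 to HSP90, was 125 to 126 in WT and 107 to 130 in Gde2KO. Among 13 tested subunits of the cytosolic chaperonin TRiC and of prefoldin, which fold actin and tubulin, 11 were higher and 2 lower, and the 2 phosducin-like cochaperones on the same list, Pdcl3 and Txndc9, were higher. The median of the log2 differences over all 15 was 0.12; Pfdn2 was 82.4, 59.1 and 69.2 in WT and 93.9, 78.1 and 83.8 in Gde2KO, and Pfdn6 was 24.5, 28.4 and 34.2 against 19.8, 21.8 and 27.1.

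The synaptic J protein Dnajc5 had the smallest p among the chaperones. It encodes cysteine string protein alpha, a palmitoylated protein of synaptic vesicles that keeps SNAP-25 folded together with HSC70, and lies at chr2:181520485-181555133 on the plus strand. Its level was 47.0, 45.7 and 46.4 FPKM in WT and 45.2, 11.6 and 12.3 in Gde2KO. Gde2KO replicates 2 and 3 were low and replicate 1 lay just under WT (log2 difference -1.31, SE 0.55, fold 0.403, 95% interval 0.155 to 1.05, limma adjusted p = 0.882). Leaving out Gde2KO replicate 1 brought the adjusted p to 0.0037, the one setting in which a chaperone gene passed.

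The low Dnajc5 values went with a shorter assembled last exon, which holds the 3′ untranslated region. That exon was 5859 to 5862 bases long in the 3 WT libraries and in Gde2KO replicate 1, and 606 and 697 bases in Gde2KO replicates 2 and 3. In these 2 libraries 20.1% and 21.5% of the 6577 counted bases were assembled, against 100% in the other 4. Over the 1323 bases assembled in all 6 libraries the level was 47.0, 45.7 and 46.4 in WT and 43.7, 57.7 and 57.4 in Gde2KO, so the 2 libraries were highest there and the log2 difference was 0.18. The files do not hold the reads beyond the assembled ends.

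**Figure D4:**
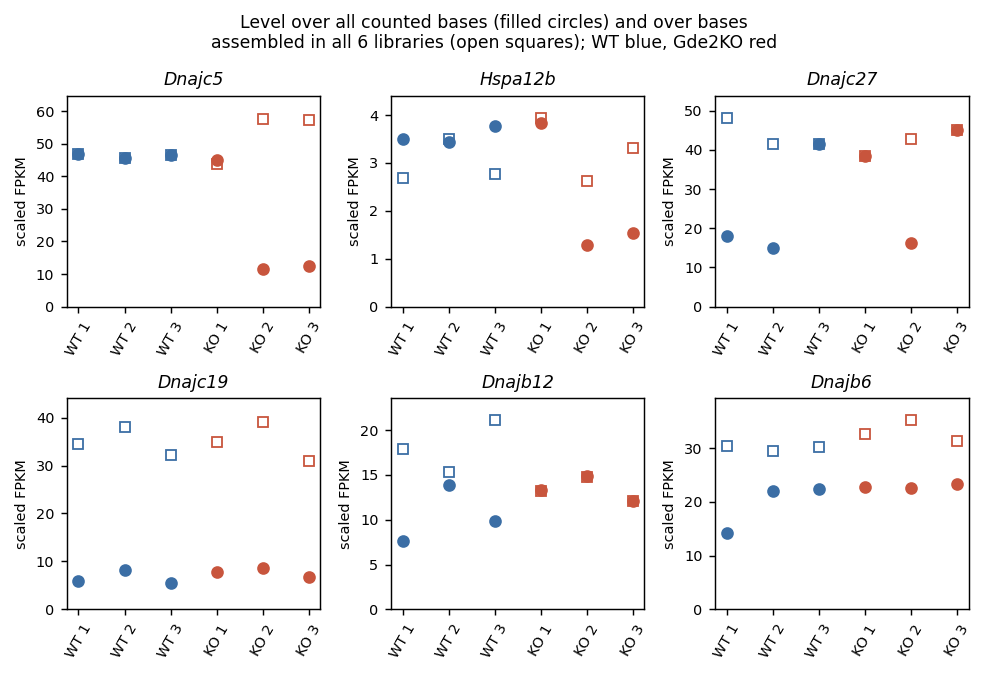
Level in each library over all counted bases (filled circles) and over the bases assembled in all 6 libraries (open squares), in scaled FPKM with axes from 0, for 6 genes (WT blue, Gde2KO red). For Dnajc5 the squares of Gde2KO replicates 2 and 3 stand at 57.7 and 57.4 and the circles at 11.6 and 12.3, and for Dnajc27 the 6 squares lie between 38.3 and 48.2.

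Other genes showed the same spread in either genotype. A library with under 75% of the counted bases assembled was found for 13 of the 60 genes, where 17.9% of all genes had one, and the highest library was at least 2 times the lowest in 10 of the 60, where 13.9% of all genes reached that ratio. The ratio was reached by 5 of the 13 genes with such a library (51.1% of all such genes) and by 5 of the other 47 (5.75% of all such genes). Hspa12b, an endothelial relative of HSP70, was 3.51, 3.44 and 3.77 FPKM in WT and 3.84, 1.29 and 1.53 in Gde2KO (fold 0.565, 95% interval 0.282 to 1.13, limma adjusted p = 0.882). As with Dnajc5, the low libraries were Gde2KO replicates 2 and 3, with 47.6% and 46.1% of counted bases assembled against 97.3% to 100% elsewhere. Over the bases assembled in all 6 it was 2.69, 3.51 and 2.77 against 3.95, 2.62 and 3.32, with overlap. The endothelial markers (6 genes) summed to 64.5 to 77.8 in WT and 63.0 to 73.1 in Gde2KO, and 5 of the 6 were lower in Gde2KO and 1 higher (median log2 difference -0.16, none passed). Their part in the Hspa12b values was not tested.

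Dnajc27 (RBJ), a small GTPase fused to a J domain, divided the libraries across genotypes. Its level was 18.1, 14.9 and 41.5 FPKM in WT and 38.3, 16.3 and 45.04 in Gde2KO, and its longest model ended in an exon of 555 to 895 bases in the 3 low libraries and 3806 to 3921 in the 3 high ones. Over the bases assembled in all 6 libraries it was 48.2, 41.6 and 41.5 against 38.3, 42.8 and 45.04. Dnajc19 had 17.2% of its counted bases assembled in WT replicates 1 and 3, and was 5.95, 8.17 and 5.56 against 7.78, 8.65 and 6.82 over counted bases but 34.5, 38.1 and 32.3 against 34.8, 39.1 and 30.9 over shared ones. The shared bases belong to a model of 6 exons found in every library. The other 4 libraries also held a separate single-exon model of 3757 to 3907 bases at 1.82 to 2.32 FPKM, and over shared bases the genotypes overlapped.

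In Dnajb12, an ER-membrane J protein, and Dnajb6, a J protein that suppresses polyglutamine aggregation, the less assembled libraries were WT. Dnajb12 was 7.67, 13.8 and 9.85 FPKM in WT and 13.3, 14.9 and 12.1 in Gde2KO, with 42.9% and 46.5% assembled in WT replicates 1 and 3. Over shared bases it was 17.9, 15.3 and 21.1 against 13.2, 14.7 and 12.1, and the direction turned (log2 difference 0.40 over counted and -0.43 over shared bases). Dnajb6, with a promoter match to the heat shock element, was 14.3, 22.1 and 22.5 against 22.7, 22.6 and 23.3. Of its libraries WT replicate 1 alone was low, at 44.8% assembled. Over shared bases Dnajb6 was 30.5, 29.4 and 30.3 against 32.7, 35.3 and 31.3, again with every Gde2KO library above WT.

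Other genes differed in their transcript models or in models shared with a neighbour. Dnajc7, a tetratricopeptide J protein that binds both HSP70 and HSP90, was 72.8, 76.4 and 76.0 FPKM in WT and 33.1, 76.3 and 75.3 in Gde2KO. Only Gde2KO replicate 1 was low, and its longest model was 3561 bases against 1583 to 1630 in the other libraries; the summed product of FPKM and length was 115 there and 118 to 128 elsewhere. Without that library the log2 difference of -0.38 became 0.01. Dnajc30, a mitochondrial J protein encoded by a single exon, was 6.83, 12.2 and 16.2 against 5.02, 5.07 and 13.0, with longest models of 1613 to 5426 bases and 71.7% of its counted bases assembled in Gde2KO replicate 3. Its summed product of FPKM and length was 25.8 to 30.9 in all 6 libraries. Dnajc24, which acts in diphthamide synthesis, was 6.01, 10.9 and 8.44 against 6.28, 5.44 and 6.95. Dnajc4 was 36.7, 23.0 and 15.5 against 34.9, 25.0 and 29.1, but every transcript over its bases was assigned to an overlapping neighbour, so its level is uncertain.

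The other genes that serve synapses and clathrin vesicles were close between genotypes. Dnajc6, which encodes auxilin, the neuronal J protein that recruits HSC70 to clathrin coats, was 39.7, 41.1 and 40.5 FPKM in WT and 40.0, 38.7 and 30.5 in Gde2KO, with only replicate 3 standing apart. Its ubiquitous relative Gak was 24.4, 25.6 and 25.0 against 23.1, 24.8 and 22.4. Dnajc13 (RME-8), which acts on endosomes, was 5.23 to 5.74. Dnajb2, a neuronal J protein with ubiquitin-binding motifs, was 34.6, 41.6 and 44.7 against 46.4, 46.0 and 41.8, and had 65.3% of its counted bases assembled in WT replicate 1. Of the 10 tested genes of this list, 5 were higher and 5 lower in Gde2KO and none passed. Dnajc8, a nuclear J protein associated with splicing, was 62.7, 63.2 and 68.5 against 48.6, 67.5 and 55.4.

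The remaining Dnajc genes tested had ranges as follows. Dnajc18 was 21.9 to 23.4 FPKM, Dnajc21 20.8 to 23.0, Dnajc14 10.8 to 17.2, Dnajc9 12.6 to 21.0 and Dnajc16 8.50 to 9.06. Dnajc12 was 7.24 to 7.91, Dnajc17 3.14 to 5.56 and Dnajc1 2.62 to 2.80. All of these overlapped between genotypes. The low ends of Dnajc9 and Dnajc17 were WT replicate 2, with 65.8% and 51.9% of their counted bases assembled. Over shared bases Dnajc17 was 5.53, 6.06 and 5.57 in WT and 4.67, 5.42 and 4.58 in Gde2KO, with every Gde2KO library below WT (log2 difference -0.22, against 0.08 over counted bases). Dnajc9 over shared bases was 17.5, 19.3 and 22.4 against 19.8, 21.0 and 16.2, with overlap.

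The 12 genes outside the test were at the limit of the assemblies. Dnajb3 (0.520 to 1.11 FPKM) and Dnajc25 (0.641 to 1.05) had a model in every library but a mean under 1. Hspb2, which overlaps the annotated start of Cryab on the opposite strand, was listed at 0 in 3 libraries and stood at 0.696, 1.76 and 1.56 in WT replicates 2 and 3 and Gde2KO replicate 2. Hspb7, a heart and muscle small heat shock protein, was listed at 0 in 3 libraries and was at most 0.669. Hspa1b and Hspb3 were assembled in 2 and 1 libraries, and Hspb9, Dnajb7, Dnajb8, Dnajc5b, Dnajc5g and Dnajc22 had no assembled base in any library, which with no counts sets no upper limit on their level.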

How the data were processed

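Each deposited file is 1 library's own transcript assembly with its FPKM values; per the submitters' processing notes the authors used FastQC, TopHat2 2.1.1, Cufflinks 2.2.1 and Cuffdiff 2.2.1 on mm10. The FastQC version and the settings are not given in the sources used here. Every other step was computed here. Transcripts of at least 200 exonic bases were matched by exon overlap to the GENCODE vM21 annotation of GRCm38 (mm10). Transcripts without a strand, 13.1% to 14.1% of each library, counted only at bases with no exon of an opposite-strand gene. Levels were averaged over counted bases (exonic, of 1 gene on its strand, assembled in at least 3 of 6 libraries) and divided by median-of-ratios factors of 0.989 to 1.04. A gene without a model was given 0.

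The test, two-sided, covered 12894 genes that had 200 counted bases or more and averaged 1 FPKM or more. It used log2 values of FPKM with 0.1 added, in limma 3.58.1 (R 4.3.3) with trended, robust variance moderation, and p-values adjusted by Benjamini-Hochberg were held against 0.05. The pseudocount understates changes of low genes. The labels put all libraries in 1 lane, and batches were not compared. Alternatives changed the level measure, pseudocount, filter, scaling, zeros, moderation and replicate block, and left out each library; bases assembled in all 6 libraries were an alternative chosen after seeing the data.

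The genes and lists were chosen with earlier results of these data known. The genes named are the 3 highest and the smallest p per direction in each family. Also named are those without overlap or with a ratio of at least 2, and those listed at 0 in part. Further ones are the members of the heat-inducible, ER stress and synaptic lists, and the smallest p per direction in each list. The ER stress element, Ddit3, Tubb3 and the other genes given by range were added after their values were seen. Marker lists of other cell types (oligodendrocyte precursors, microglia, mural, meningeal, Schwann, ependymal and red blood cells, dorsal horn neurons, immediate early genes) were summed per library, and no gene of them passed.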

Additional observations from a re-analysis of the deposited data

How the results depend on the processing

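No chaperone gene passed under 20 of the 21 alternatives; Dnajc5 passed without Gde2KO replicate 1 (1 gene; 0 to 1 over the settings that leave out 1 library). The number with an unadjusted p under 0.05, 0 as reported, was 1 with the plain sum, 2 with fragments per gene, 1 with a mean of at least 5 FPKM, 1 with zeros as missing, 1 with the replicate block, 2 over bases assembled in all 6 libraries, and 0 to 3 leaving out 1 library. Over all genes the number passing, 15, was 4 with a pseudocount of 0.01, 1 with a mean of at least 5, 4 with zeros as missing, 4 over bases assembled in all 6, and 10 to 26 leaving out 1 library. Gdpd5 lost its call with the plain sum (log2 difference -1.45) and the longest transcript alone (-2.55). With the replicate number as a block, 2 genes passed and Gdpd5 (-2.31) did not. Deviations of same-numbered libraries correlated at 0.0352, -0.00724 and 0.0449, so the numbers were not taken as pairs.

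Of 60 chaperone genes, 19 kept the sign of their log2 difference under every alternative that gave a value, and 41 changed it in at least 1; none of these was called in either direction, other than Dnajc5 as above, and the cause was not tested. Dnajc4, whose own transcripts give no level, has no value under 3 alternatives. With the plain sum the changed values were Dnajc5 0.22, Dnajb12 -0.41, Dnajc27 -0.082, Dnajc9 -0.12, Dnajc15 0.47, Hspa9 -0.0065, Dnajb2 -0.070, Dnajc1 -0.36, Dnajc10 -0.24, Dnajc2 -0.31, Hsph1 -0.048, Dnaja4 0.26, Dnajc17 -0.20, Dnajb5 0.11, Dnajc28 0.0027, Hspb8 -0.0010, Hspa2 0.020 and Hspa12b 0.16. With the longest transcript alone they were Dnajc5 0.063, Dnajb9 -0.011, Hsp90b1 0.27, Dnajb12 -0.34, Hsp90aa1 -0.16, Dnajc15 0.035, Hspa4l 0.0046, Dnajb2 -0.78, Dnajc19 -2.61, Dnajb4 -0.46, Dnaja1 -0.18, Hsph1 -0.036, Dnajc13 0.24, Hspa13 -0.27, Dnajc17 -0.22, Hspb6 0.25, Dnajc11 0.065, Hspa2 1.01 and Hspa12b 0.30. Over bases assembled in all 6 libraries they were Dnajc5 0.18, Dnajb9 -0.012, Dnajb12 -0.43, Dnajc27 -0.055, Dnajc9 -0.051, Dnajc15 0.17, Dnajb2 -0.063, Dnajc19 -0.0040, Dnaja4 0.034, Dnajc17 -0.22, Dnajb5 0.063, Hspa2 0.0016 and Hspa12b 0.13. Without scaling they were Dnajb11 -0.0065, Dnajb9 -0.022, Hspa9 -0.023, Dnajc1 -0.012, Dnaja1 -0.0052, Dnajc12 -0.028, Dnajc16 -0.00028 and Hspb8 -0.034. With fragments per gene they were Hspa1l 0.34, Hspa8 -0.021, Dnajc14 -0.019, Hspa4l 0.038, Dnajc1 -0.015, Dnajc24 0.11, Dnaja2 0.020, Dnaja4 0.0035, Dnajc13 0.0086 and Dnajc12 -0.0080. Single changes were Hspa1l 0.021, Dnajc28 0.018 and Hspb8 -0.011 with quantile normalization, Dnajc12 -0.0012 with same-strand transcripts, Dnajc12 -0.0043 and Hspb8 -0.0095 with a mean of at least 5, Hspa2 0.0014 without the filter and Hspa1a -0.78 with zeros as missing. Leaving out 1 library, values that changed sign ran from -0.013 to 0.067 for Dnajb11, -0.043 to 0.17 for Dnajb1, -0.16 to 0.14 for Hspa1l, -0.59 to 0.014 for Dnajc7, -0.028 to 0.042 for Dnajb9, -0.0084 to 0.027 for Hspa9, -0.11 to 0.22 for Dnajc14, -0.10 to 0.043 for Hspa4l, -0.042 to 0.12 for Dnajc10, -0.0045 to 0.067 for Dnaja1, -0.11 to 0.042 for Dnaja2, -0.10 to 0.068 for Dnaja4, -0.035 to 0.031 for Dnajc13, -0.19 to 0.21 for Dnajc17, -0.091 to 0.065 for Dnajb5, -0.028 to 0.036 for Dnajc12, -0.040 to 0.0087 for Dnajc28, -0.053 to 0.039 for Hspb8, -0.041 to 0.017 for Hspa2 and -0.073 to 0.19 for Hspe1. With 3 libraries a genotype the median 95% interval reached 0.23 to either side, before any adjustment for the number of genes, and the files hold no counts from which depth could be judged.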
